A study of Mus musculus with 6 samples.

Results

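The genes described here encode the subunits of voltage-gated sodium channels, voltage-gated calcium channels and HCN channels in mouse brain. They were chosen by gene symbol, which gave 36 of the 23057 genes in the deposited table; 33 of them are described: 12 sodium, 18 calcium and 3 HCN channel genes. All counts of members below are over these 33. RNA came from brains of C57BL/6 mice taken 30 days after mock irradiation (3 mice) or after cranial X-irradiation with a total dose of 10 Gy (3 mice), and the labels give no other allele or agent and call the tissue whole brain. The X-ray field was 10.08 mm wide and all mice were perfused with PBS before dissection. Libraries are named by group and replicate number, and all levels are FPKM, a read count divided by transcript length and library size. This puts genes of different length on a common scale, but levels of long transcripts still differed between libraries, as described below.

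Voltage-gated sodium channels open on depolarization and carry the rising phase of the action potential; each has 1 large pore-forming alpha subunit and smaller beta subunits that set its kinetics, surface level and adhesion. Voltage-gated calcium channels have a pore-forming alpha-1 subunit, which fixes the current type (L, P/Q, N, R or T), and, except for the T type, an intracellular beta subunit and an extracellular alpha-2-delta subunit that control trafficking and gating. HCN channels open on hyperpolarization, are modulated by cyclic nucleotides and carry the pacemaker current of rhythmically firing neurons. Brain regions use different sets of these subunits, and cerebellar neurons in particular lean on their own combination.

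After irradiation the accessory sodium subunit gene Scn3b and the calcium beta gene Cacnb1 were higher, by 1.52 and 1.35 on the log2 scale. The accessory sodium subunit gene Scn4b fell by 1.35. The other tested members missed the threshold. With the called ones counted in, 5 members were higher and 6 lower with an unadjusted p under 0.05, which 25.6% of all tested genes had. Of the 33 members, 27 averaged 0.5 FPKM or more across the 6 libraries and were tested, within 14585 genes in all (limma on log2(FPKM + 0.5), Benjamini-Hochberg adjustment over all genes, a call at an adjusted p under 0.05). The 2 members called higher stand against 3.48% of all tested genes called higher, and the 1 called lower against 4.24%. Together they are 11.1% of the tested members, beside 7.72% of all tested genes called in either direction. Without mock 1 or mock 2 the members' counts were 1 higher and 0 lower, without mock 3 they were 2 and 1, and without irradiated 1, 2 and 3 they were 4 and 1, 1 and 3, and 1 and 1. Calls over all tested genes, 508 higher and 618 lower with all libraries, moved as well. Without mock 1, 2 and 3 they were 184 and 254, 192 and 291, and 306 and 344. Without irradiated 1, 2 and 3 they were 671 and 684, 358 and 534, and 148 and 259. In 10 of the 27 tested members the 3 irradiated libraries lay wholly outside the mock range, 4 above and 6 below; of all tested genes, 31.5% had such a gap (13.7% above and 17.7% below), which is close to the members' share. The median log2 change was 0.12 over the tested members and -0.02 over all tested genes.

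**Figure D1:**
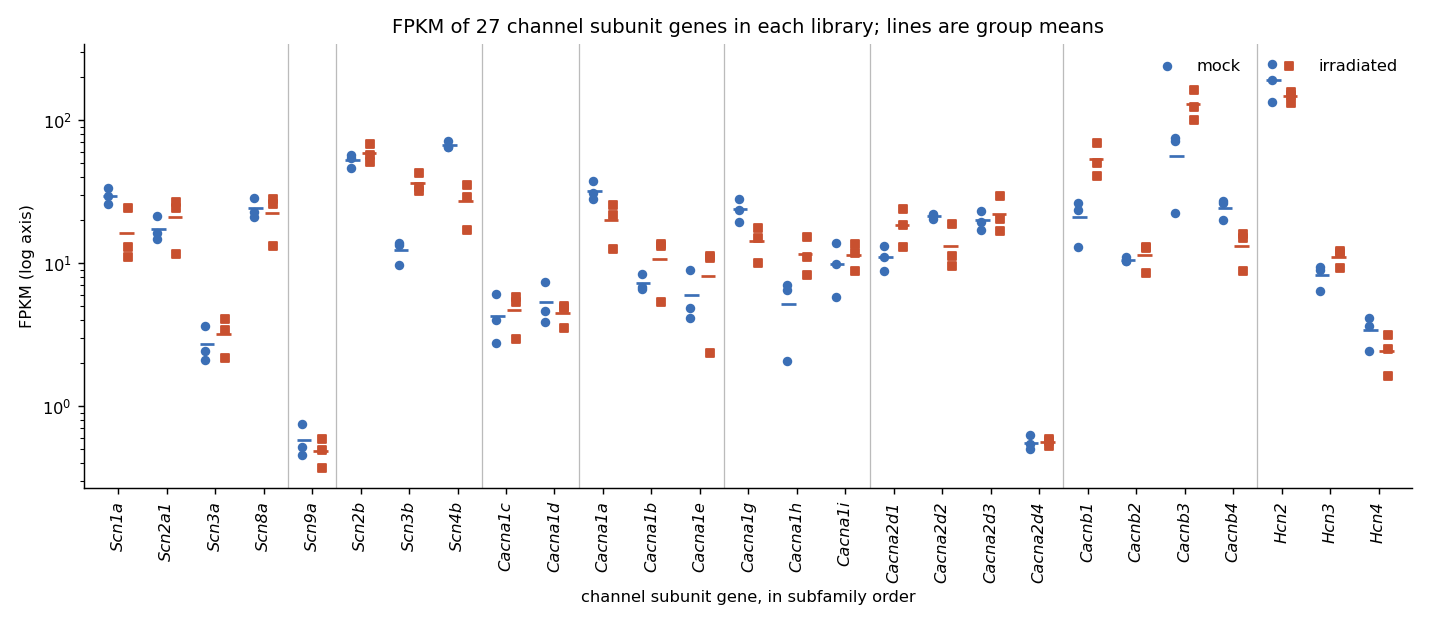
FPKM of the 27 tested channel genes on a log axis, with a circle for each mock library, a square for each irradiated library and a line at each group mean; vertical lines part the subfamilies. Hcn2 and Cacnb3 are the most abundant. The groups do not overlap for 4 members that are higher and 6 that are lower, with Scn3b, Scn4b and Cacnb1 among them.

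**Figure D2:**
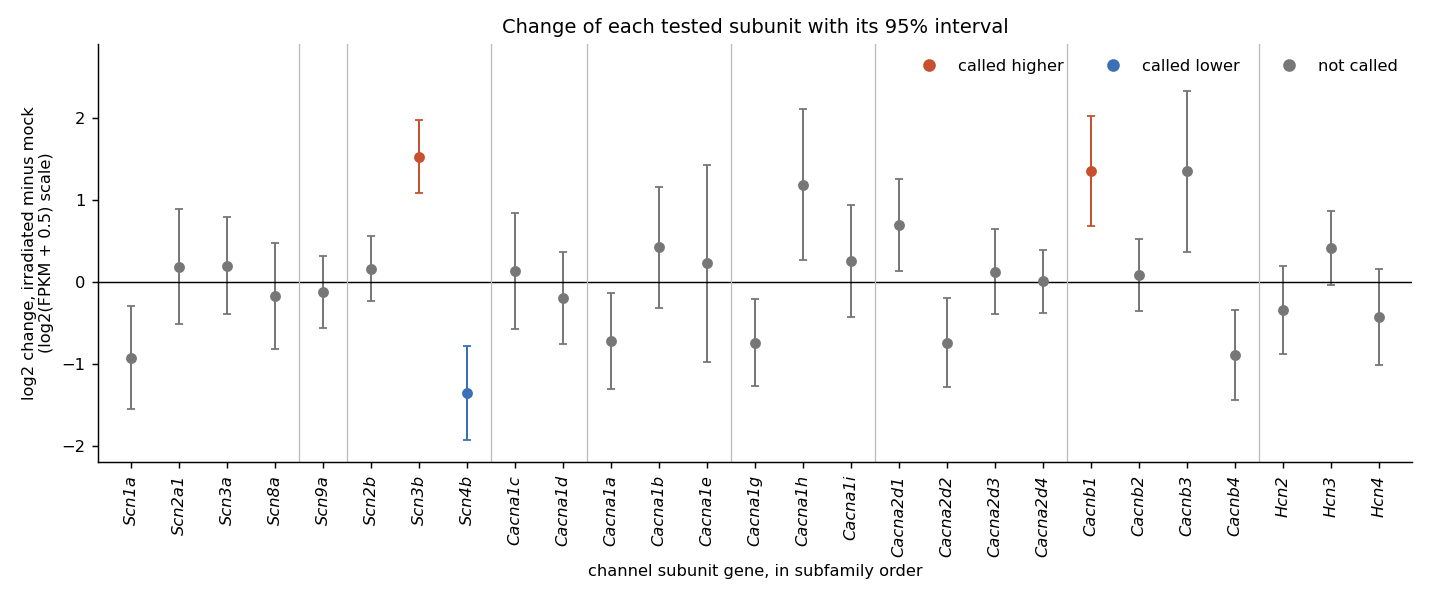
Log2 change of each tested member (irradiated minus mock, log2(FPKM + 0.5) scale) with its 95% interval; red marks members called higher, blue the member called lower and grey those not called. Changes run from -1.35 for Scn4b to 1.52 for Scn3b, and most intervals include 0.

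Several marker gene lists for brain regions and cell types also differed between mock and irradiated libraries, and the results that follow should be read beside them. Summed over 8 marker genes each, the cerebellar granule cell list was at 430.7 to 644.3 FPKM in mock mice and 50.6 to 68.2 FPKM in irradiated mice, and the telencephalon list at 9.16 to 46.8 and 94.3 to 190.8 FPKM. The 10 Purkinje cell genes summed to 1405 to 1620 FPKM in mock mice and 205.5 to 400.5 FPKM in irradiated mice, and the 9 hindbrain and spinal genes to 97.6 to 103.5 and 2.79 to 4.77 FPKM. Myelin (10 genes), oligodendrocyte precursor (10) and astrocyte (8) lists also summed lower in each irradiated library, at 2570 to 4514 FPKM for myelin against 5473 to 6583 FPKM. Bcas1, the most abundant precursor list gene, was at 109.1 to 144.7 FPKM in mock mice and 59.8 to 100.4 FPKM in irradiated mice. Of the 10 precursor genes 5 were called lower, and 1, Cspg4, had a positive log2 change (0.05, limma adjusted p = 0.93). Pdgfra overlapped between groups and was not called (limma adjusted p = 0.27). The astrocyte list was uneven. Aldoc, its most abundant gene, was at 819.3 to 906.3 FPKM in mock mice and 465.8 to 635.0 FPKM in irradiated mice. Of the 8 astrocyte genes only 2 were called lower, and 3 had a positive log2 change. The 12 pan-neuronal genes overlapped, at 4366 to 5213 and 4717 to 5495 FPKM. Gabra6, the granule cell marker, was listed at 0 in irradiated 2, and the hindbrain marker Hoxb6 was listed at 0 in all irradiated libraries. Olfactory bulb genes differed within each group. Doc2g was at 94.4, 6.22 and 117.7 FPKM in mock 1, 2 and 3 and 123.4, 3.96 and 4.26 FPKM in irradiated 1, 2 and 3. Cdhr1 was at 22.5, 0.74 and 19.3 FPKM and 17.3, 2.10 and 2.20 FPKM. Slc17a7, the most abundant gene of that list, was instead called higher after irradiation. In this design, irradiation and a different regional makeup of the dissected tissue cannot be told apart. In RNA from whole tissue, fewer cells of a type and less RNA per cell cannot be told apart either.

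Among the 4 sodium alpha subunits of central neurons, only Scn1a had separated groups, and none passed the test (limma; 1 had an unadjusted p under 0.05). Scn1a encodes Nav1.1, the alpha subunit of fast-spiking interneurons and Purkinje cells (GRCm38.p6, chromosome 2, 66270781 to 66440837). Its level was 29.6, 33.4 and 25.8 FPKM in mock 1, 2 and 3 and 11.1, 24.3 and 13.1 FPKM in irradiated 1, 2 and 3. All irradiated libraries were below all mock libraries, with irradiated 2 just under mock 3. The log2 change was -0.93 (SE 0.28, 95% interval -1.55 to -0.30, limma adjusted p = 0.077). Without irradiated 2 it was -1.25 and was called (limma adjusted p = 0.014).

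Scn2a1, the table's name for the gene of Nav1.2, the alpha subunit of excitatory axons, was at 21.3, 16.2 and 14.8 FPKM in mock mice and 11.6, 24.1 and 26.9 FPKM in irradiated mice. Irradiated 1 was the lowest of the 6 and irradiated 2 and 3 the highest, so the groups overlapped (log2 change 0.19, 95% interval -0.51 to 0.88). Scn8a, which encodes Nav1.6 of the axon initial segment and nodes of Ranvier, likewise had its lowest value in irradiated 1, at 28.4, 21.1 and 22.9 FPKM in mock mice and 13.1, 25.8 and 27.9 FPKM in irradiated mice. Its log2 change was -0.17 (95% interval -0.82 to 0.47). Scn3a, which encodes Nav1.3 and is best known from developing brain, was the least abundant of the 4, between 2.11 and 4.07 FPKM in all libraries (log2 change 0.20, SE 0.26).

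Shares within the sum are tied to each other, so that a lower Scn1a raises the rest. Scn1a made up 40.2% ± 5.20 (SD, n = 3) of the summed FPKM of these 4 genes in mock libraries and 26.2% ± 6.88 (SD, n = 3) in irradiated ones. Scn2a1 made up 23.5% ± 1.91 and 33.0% ± 4.08, and Scn3a 3.65% ± 0.73 and 5.22% ± 0.44. None of these 3 shares overlapped between groups, while that of Scn8a did (29.0 to 34.7% in mock mice and 33.0 to 39.1% in irradiated mice). The sum of the 4 genes overlapped too, at 66.0 to 82.9 FPKM in mock mice and 38.0 to 78.3 FPKM in irradiated mice. These shares are descriptions and carry no test.

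Sodium alpha subunits known mainly from skeletal muscle and peripheral nerve were low. Scn9a, which encodes Nav1.7 of pain-sensing neurons, was at 0.37 to 0.75 FPKM over the 6 libraries (log2 change -0.12, SE 0.19). Scn7a, which encodes the sodium-sensing channel Nax, lay just under the filter at 0.35 to 0.57 FPKM. Scn10a and Scn11a, both of sensory neurons, stayed at or below 0.21 and 0.12 FPKM, and Scn10a was listed at 0 in mock 2. Scn4a, the skeletal muscle subunit, was listed at 0 in mock 1, irradiated 2 and irradiated 3 and was at 0.0099 FPKM at most in the others. Without a filter on low values none of these 4 genes was called (smallest limma adjusted p = 0.22, for Scn10a). In the sensory ganglion list Trpv1 was at 0.096 FPKM at most and Mrgprd was listed at 0 in all libraries but mock 1. The whole list was neither absent nor flat, at 35.0 to 62.8 FPKM in mock mice and 10.7 to 14.8 FPKM in irradiated mice. Of its 5 tested genes 4 were called lower, and 1 had a positive log2 change. Prph, its most abundant gene, was at 16.5 to 30.9 FPKM in mock mice and 4.97 to 6.92 FPKM in irradiated mice. In the muscle list Ckm was at 0.17 FPKM at most. Acta1 of the same muscle list was at 1.88 to 6.03 FPKM in mock mice and 6.71 to 13.9 FPKM in irradiated mice, with no overlap and no call (log2 change 1.17, limma adjusted p = 0.10), and the part of muscle RNA in these levels was not tested. The retina list summed to 0.85 to 1.45 FPKM in mock mice and 1.78 to 2.58 FPKM in irradiated mice.

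The sodium beta genes Scn3b and Scn4b had the smallest adjusted p of the members described, and they changed in opposite directions. Scn3b encodes beta-3, a non-covalently bound subunit (chromosome 9, 40269216 to 40291618). Its level was 13.5, 9.65 and 13.9 FPKM in mock mice and rose to 31.7, 34.3 and 42.8 FPKM in irradiated mice. The groups did not overlap, and the lowest irradiated library was well above the highest mock library. The log2 change was 1.52 (SE 0.20, 95% interval 1.08 to 1.97, limma adjusted p = 0.0033), and the call held when any single library was left out.

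Scn4b encodes beta-4, which is disulfide-linked to the alpha subunit and promotes resurgent sodium current, a hallmark of Purkinje cells (chromosome 9, 45138624 to 45154155). Its level was 64.8, 71.2 and 64.6 FPKM in mock mice and fell to 28.9, 35.1 and 17.0 FPKM in irradiated mice. The mock values were close together, and irradiated 3 was the lowest. The log2 change was -1.35 (SE 0.25, 95% interval -1.92 to -0.78, limma adjusted p = 0.017). Without mock 1 or mock 2 it was not called (limma adjusted p = 0.059 and 0.065), with log2 changes of -1.37 and -1.31.

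Scn2b, which encodes beta-2, a subunit that like beta-4 binds the alpha subunit through a disulfide bond, was at 56.7, 54.4 and 46.0 FPKM in mock mice and 50.9, 68.2 and 57.4 FPKM in irradiated mice (log2 change 0.16, 95% interval -0.23 to 0.56). Scn2b and Scn4b lie side by side on chromosome 9, on the same strand and 8.55 kb apart, yet only Scn4b was called. In the 250 bases before their RefSeq starts, Scn4b had 23 CpG dinucleotides and 66.0% G and C, and Scn2b had 1 CpG and 38.4%, against medians of 6 and 52.4% over all 32851 RefSeq windows of that length. Of the summed FPKM of these 3 genes, Scn3b made up 9.43% ± 2.08 in mock mice and 29.9% ± 5.94 in irradiated mice, Scn4b 50.8% ± 2.49 and 22.0% ± 6.46, and Scn2b 39.7% ± 2.57 and 48.1% ± 2.11 (SD, n = 3 each). None of these shares overlapped between groups. The ratio of Scn3b to Scn4b, chosen after its values were seen, was 0.21, 0.14 and 0.22 in mock mice and 1.1, 0.98 and 2.51 in irradiated mice.

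**Figure D3:**
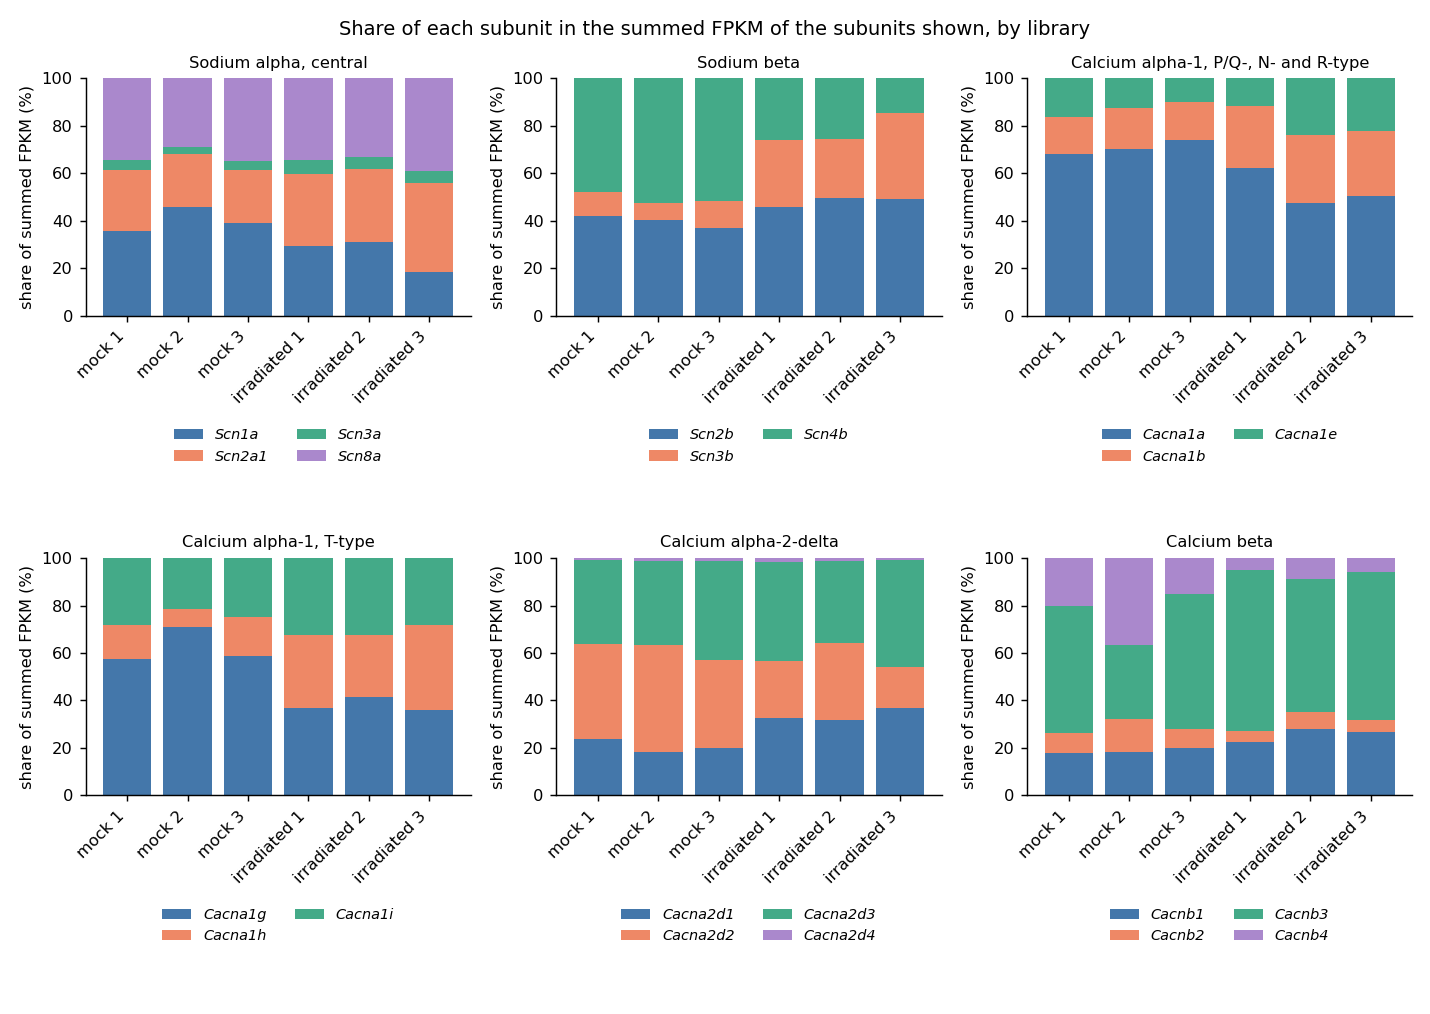
Share of each subunit in the summed FPKM of the subunits drawn in its panel, as a stacked bar for each of the 6 libraries. In the sodium beta panel Scn4b shrinks and Scn3b grows in all irradiated libraries, in the T-type panel Cacna1g gives way to Cacna1h, and in the calcium beta panel the Cacnb4 share is below 9% in each irradiated library.

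None of the 8 tested calcium alpha-1 genes was called (limma); Cacna1a, Cacna1g and Cacna1h had an unadjusted p under 0.05. Of the L-type genes, which couple depolarization to gene expression and muscle contraction, Cacna1c (Cav1.2) was at 6.11, 2.75 and 4.02 FPKM in mock mice and 2.96, 5.36 and 5.82 FPKM in irradiated mice. Cacna1d (Cav1.3) was at 7.41, 3.90 and 4.66 FPKM in mock mice and 3.54, 4.88 and 5.03 FPKM in irradiated mice. Their log2 changes of 0.13 (95% interval -0.58 to 0.85) and -0.19 (95% interval -0.76 to 0.37) had groups that overlapped. Cacna1s, of skeletal muscle, was at 0.13 to 0.53 FPKM, and Cacna1f, of photoreceptors, at 0.060 FPKM or less; both were below the filter.

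Of the presynaptic types, Cacna1a was lower in each irradiated library without passing the test. Cacna1a encodes Cav2.1, the P/Q-type pore that dominates in Purkinje cells (chromosome 8, 84338631 to 84640251). Its level was 37.4, 28.0 and 30.8 FPKM in mock mice and 12.6, 21.7 and 25.4 FPKM in irradiated mice. The groups did not overlap, and the gap between mock 2 and irradiated 3 was small (log2 change -0.72, SE 0.26, limma adjusted p = 0.12). Cacna1b, which encodes the N-type pore Cav2.2, was at 8.45, 6.87 and 6.64 FPKM in mock mice and 5.38, 13.2 and 13.6 FPKM in irradiated mice. Irradiated 1 was the lowest of the 6 and irradiated 2 and 3 the highest. The log2 change of Cacna1b was 0.42 (SE 0.32, limma adjusted p = 0.44), and without irradiated 1 it was 0.83 and called (limma adjusted p = 0.025).

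Cacna1e, which encodes the R-type pore Cav2.3, had the largest standard error of its log2 change among the tested members. It was at 8.95, 4.87 and 4.15 FPKM in mock mice and 2.34, 10.9 and 11.2 FPKM in irradiated mice (log2 change 0.23, 95% interval -0.98 to 1.43). Within this subfamily the share of Cacna1b was narrow in each group, at 15.4 to 17.3% in mock mice and 26.4 to 28.8% in irradiated mice. That of Cacna1a was 68.2 to 74.0% and 47.4 to 62.0%. The share of Cacna1e overlapped, since irradiated 1 was at 11.5%.

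The T-type genes encode low-threshold channels that drive burst firing. Cacna1g (Cav3.1), prominent in thalamic relay neurons, Purkinje cells and cerebellar nuclei, was at 28.3, 19.5 and 23.5 FPKM in mock mice and 10.0, 17.5 and 15.0 FPKM in irradiated mice. All irradiated values were below all mock values (log2 change -0.74, SE 0.23, limma adjusted p = 0.087). Cacna1h (Cav3.2), which dentate granule cells use, was at 6.99, 2.07 and 6.53 FPKM in mock mice and 8.28, 11.1 and 15.1 FPKM in irradiated mice. Its groups did not overlap either, and mock 2 stood well below the other mock libraries (log2 change 1.19, SE 0.41, limma adjusted p = 0.11). Cacna1i (Cav3.3), of thalamic reticular neurons, overlapped (log2 change 0.25, 95% interval -0.43 to 0.94), with its lowest value, 5.83 FPKM, in mock 2. The 10 thalamus markers summed to 326.5 to 398.5 FPKM in mock mice and 199.5 to 399.0 FPKM in irradiated mice and so overlapped. Calb2 alone was at 236.4 to 316.3 FPKM in mock mice and 103.5 to 314.6 FPKM in irradiated mice. Of the 10 genes 3 (Tcf7l2, Lef1 and Ramp3) were called higher and 1 (Rora) lower. Cacna1g made up 62.5% ± 7.54 of the T-type sum in mock mice and 38.1% ± 2.93 in irradiated mice, and Cacna1h 12.7% ± 4.59 and 31.0% ± 4.91 (SD, n = 3 each).

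Among the alpha-2-delta genes, Cacna2d1 and Cacna2d2 differed in opposite directions, each with an unadjusted p under 0.05, and neither was called (limma). Alpha-2-delta proteins carry channels to the surface, and the first and second of them bind the drug gabapentin. Cacna2d2, known from Purkinje cells and from the ataxic ducky mouse (chromosome 9, 107399733 to 107529346), measured 22.1, 21.5 and 20.5 FPKM in mock mice and 9.53, 18.7 and 11.2 FPKM in irradiated mice. Its mock values were tight and all irradiated values were lower (log2 change -0.74, SE 0.24, limma adjusted p = 0.094). Without irradiated 2 the change was -1.01 and was called (limma adjusted p = 0.020).

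Cacna2d1 was at 13.1, 8.81 and 11.1 FPKM in mock mice and 13.0, 18.4 and 24.0 FPKM in irradiated mice. Irradiated 1 fell just below mock 1, so the groups overlapped (log2 change 0.70, SE 0.24, limma adjusted p = 0.12). Without irradiated 1 the Cacna2d1 change was 0.92 and was called (limma adjusted p = 0.036). Cacna2d3, which was between 16.8 and 29.5 FPKM, and Cacna2d4, a retinal subunit at 0.50 to 0.63 FPKM, had log2 changes of 0.12 (SE 0.23) and 0.01 (SE 0.17).

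Calcium beta subunits bind the alpha-1 subunit inside the cell and bring the channel to the membrane. Cacnb1 encodes beta-1 (chromosome 11, 98001508 to 98023034). Its level was 23.6, 13.0 and 26.4 FPKM in mock mice and rose to 40.4, 50.4 and 69.5 FPKM in irradiated mice. The groups did not overlap, and mock 2 was the lowest library. The log2 change was 1.35 (SE 0.29, 95% interval 0.68 to 2.02, limma adjusted p = 0.030). The call was lost without mock 1 (limma adjusted p = 0.068), mock 2 (0.069), irradiated 2 (0.060) or irradiated 3 (0.11), and with no filter on low values (0.056).

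Cacnb3, which encodes beta-3 of forebrain N-type channels, was the most abundant calcium beta gene (chromosome 15, 98628436 to 98644536). Its level was 71.1, 22.5 and 74.4 FPKM in mock mice and 123.5, 100.3 and 162.5 FPKM in irradiated mice. Mock 2 lay far below the other mock libraries. The log2 change of 1.35 (SE 0.43, 95% interval 0.37 to 2.33) was not called (limma adjusted p = 0.092), and without mock 2 it was 0.79 and not called either (limma adjusted p = 0.13). Cacnb4, the beta subunit that is mutated in the ataxic lethargic mouse (chromosome 2, 52428320 to 52676609), differed in the other direction. It was at 27.0, 26.2 and 20.1 FPKM in mock mice and 8.86, 16.0 and 15.0 FPKM in irradiated mice, with no overlap (log2 change -0.89, SE 0.24, limma adjusted p = 0.061). Cacnb2, best known from heart, was at 8.49 to 12.9 FPKM (log2 change 0.08, SE 0.19). The share of Cacnb4 in the 4 genes' sum was 20.3, 36.4 and 15.3% in mock mice and 4.89, 8.91 and 5.76% in irradiated mice.

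Upstream sequence is shown for Cacnb1, the called calcium beta gene, and Cacnb3, which was likewise higher in each irradiated library, because the windows of these genes were the only member windows with the letters GGACAG. These are the right part of RE1, the element bound by the neuronal gene repressor REST. Both sequences are from RefSeq (GRCm38.p6), 5′ to 3′ on the gene's strand, before a start of the gene and clear of annotated exons; capitals mark GGACAG and the GC box GGGCGG on either strand.
Cacnb1: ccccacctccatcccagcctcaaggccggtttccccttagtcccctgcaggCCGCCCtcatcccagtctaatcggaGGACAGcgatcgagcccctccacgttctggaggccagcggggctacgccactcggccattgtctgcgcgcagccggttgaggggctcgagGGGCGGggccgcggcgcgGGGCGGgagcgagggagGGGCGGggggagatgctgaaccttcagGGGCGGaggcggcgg
Cacnb3: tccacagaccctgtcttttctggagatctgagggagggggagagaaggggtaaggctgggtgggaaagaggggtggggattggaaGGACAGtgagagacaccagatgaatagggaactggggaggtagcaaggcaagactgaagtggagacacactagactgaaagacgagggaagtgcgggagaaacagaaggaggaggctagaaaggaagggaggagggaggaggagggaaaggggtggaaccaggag
The Cacnb1 stretch is chr11:98022635-98022877 on the minus strand and the Cacnb3 stretch is chr15:98632078-98632327 on the plus strand. Both stretches lie within the gene spans given above. The Cacnb1 stretch holds 5 GC boxes and 24 CpG dinucleotides, and that of Cacnb3 holds 0 and 2. This contrast depends on the start that was printed. The other RefSeq window of Cacnb1 holds 0 GC boxes and 1 CpG, and the other window of Cacnb3 holds 3 and 23. RefSeq windows were found for 26 of the 33 members (36 windows). GGACAG was in 2 of the 36 and in 18.7% of all windows, GGGCGG in 15 of the 36 and 32.7%, TATAAA in 2 and 12.4%, and the left part of RE1, TTCAGCACC, in 0 and 0.3%; each was searched on both strands, and matches of different motifs were counted apart even where they overlapped. Members with no window were Cacna1a, Cacna1g, Cacna1h, Cacna2d4, Hcn3, Scn3a and Scn3b.

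None of the 3 HCN genes described was called (limma; 0 with an unadjusted p under 0.05), and all 3 overlapped between groups. Hcn2, expressed throughout the brain and strongly in thalamus, was at 191.2, 134.5 and 245.8 FPKM in mock mice and 131.7, 149.2 and 158.0 FPKM in irradiated mice. The mock spread was wide and held most of the irradiated values (log2 change -0.34, 95% interval -0.88 to 0.20). Hcn3 was at 9.37, 6.35 and 8.97 FPKM in mock mice and 9.28, 12.1 and 11.8 FPKM in irradiated mice (log2 change 0.42, 95% interval -0.03 to 0.86). Hcn4, the slow sinoatrial and thalamic form, was at 4.16, 2.42 and 3.64 FPKM in mock mice and 1.62, 3.13 and 2.51 FPKM in irradiated mice (log2 change -0.43, 95% interval -1.02 to 0.16). Of the summed FPKM of these 3 genes, Hcn2 made up 93.4 to 95.1% in mock mice and 90.8 to 92.4% in irradiated mice, and Hcn3 3.47 to 4.58% and 6.51 to 7.34%, with no overlap of the groups.

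Of 37 genes for proteins that bind, anchor or regulate these channels, 35 were tested, 3 rose and 2 fell (14.3% of those tested, beside 7.72% of all tested genes), and the median log2 change was -0.05. Stac, an adaptor that binds L-type channels, fell from 5.40, 4.99 and 5.18 FPKM in mock to 2.02, 1.62 and 1.52 FPKM in irradiated mice (log2 change -1.36, SE 0.17, limma adjusted p = 0.0025). Fgf13, an intracellular factor that binds sodium channel tails, rose from 27.5, 25.4 and 28.6 FPKM to 47.7, 54.1 and 65.6 FPKM (log2 change 1.01, SE 0.17, limma adjusted p = 0.010). Both remained called when any single library was left out. The other called genes belong to the gamma family, whose neuronal members act mainly as TARPs, partners of AMPA-type glutamate receptors.

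Cacng8 rose from 23.2, 13.9 and 34.0 FPKM to 51.0, 66.3 and 129.8 FPKM and Cacng3 from 22.3, 6.95 and 18.5 FPKM to 47.3, 36.0 and 57.2 FPKM, with log2 changes of 1.75 (limma adjusted p = 0.034) and 1.65 (0.040). Cacng2, called stargazin and abundant in cerebellar granule cells, fell from 22.4, 20.4 and 18.9 FPKM to 11.8, 13.0 and 11.7 FPKM, with a log2 change of -0.73 (limma adjusted p = 0.023). Mock 2 was the lowest library for Cacng8 and Cacng3. The call for Cacng8 was lost without mock 1 (limma adjusted p = 0.094), mock 2 (0.11), irradiated 2 (0.058) or irradiated 3 (0.097). That for Cacng3 was lost without mock 3 (limma adjusted p = 0.060), irradiated 1 (0.059), irradiated 2 (0.053) or irradiated 3 (0.14). That for Cacng2 was lost without mock 1 (limma adjusted p = 0.10), mock 2 (0.067), mock 3 (0.054) or irradiated 3 (0.094). Ank3, whose product ankyrin-G anchors sodium channels, had a log2 change of -0.18 (SE 0.16), and Pex5l, the HCN partner TRIP8b, had one of -0.08 (SE 0.16); neither was called.

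Several of the 10 members with separated groups had the same highest or lowest library as the region markers. Scn3b, Cacna1h, Cacnb1 and Cacnb3 each had their lowest value in mock 2 and their highest in irradiated 3. These are common extremes, with mock 2 the lowest for 25.3% and irradiated 3 the highest for 24.7% of all tested genes, and a member that was higher in every irradiated library has its lowest value in a mock library and its highest in an irradiated one by definition. The telencephalon list ran the same way, with library medians of -0.24, -2.19 and -0.24 in mock mice and 0.55, 0.85 and 1.49 in irradiated mice, as log2 values centred on each gene's mean. In mock 2 the forebrain marker Tbr1 was at 0.12 FPKM. Scn1a and Scn4b had their highest value in mock 2, where the Purkinje cell list was highest as well (library medians 1.18, 1.55 and 1.01 in mock mice and -1.13, -1.53 and -1.22 in irradiated mice). Cacna1a, Cacna1g, Cacna2d2 and Cacnb4 had theirs in mock 1. Mock 2 was the highest library for 20.8% of all tested genes, and a member lower in every irradiated library has its highest value in a mock library by definition. The 8 parvalbumin interneuron genes, another set of cells rich in Nav1.1, summed to 634.0 to 813.5 FPKM in mock mice and 264.2 to 460.5 FPKM in irradiated mice. Pvalb had the highest mean level of that list, at 280.9 to 495.7 FPKM in mock mice and 51.3 to 175.9 FPKM in irradiated mice. Of the 8 genes 3 were called lower and 1, Lhx6, was called higher (log2 change 2.45, limma adjusted p = 0.0058). Counting all 8, called or not, 5 had a negative and 3 a positive log2 change. Whether such interneurons were fewer was not tested.

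With the mean of the telencephalon list as a covariate no member was called (limma; 1 was higher and 5 were lower with an unadjusted p under 0.05). Under it the log2 change of Scn3b was 1.03 (limma adjusted p = 0.13), that of Scn4b -1.04 (0.40) and that of Cacnb1 0.44 (0.56), while those of Cacnb3 and Cacna1h became -0.08 and -0.20. The same covariate left 16 genes higher and 56 lower of all genes tested. With mock 2 and irradiated 1 left out together, Scn3b, Cacnb1, Cacna1b and Cacna1h were called higher and Scn4b lower. The telencephalon list itself was higher in each irradiated library than in any mock library, so its effect and that of the group cannot be told apart.

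**Figure D4:**
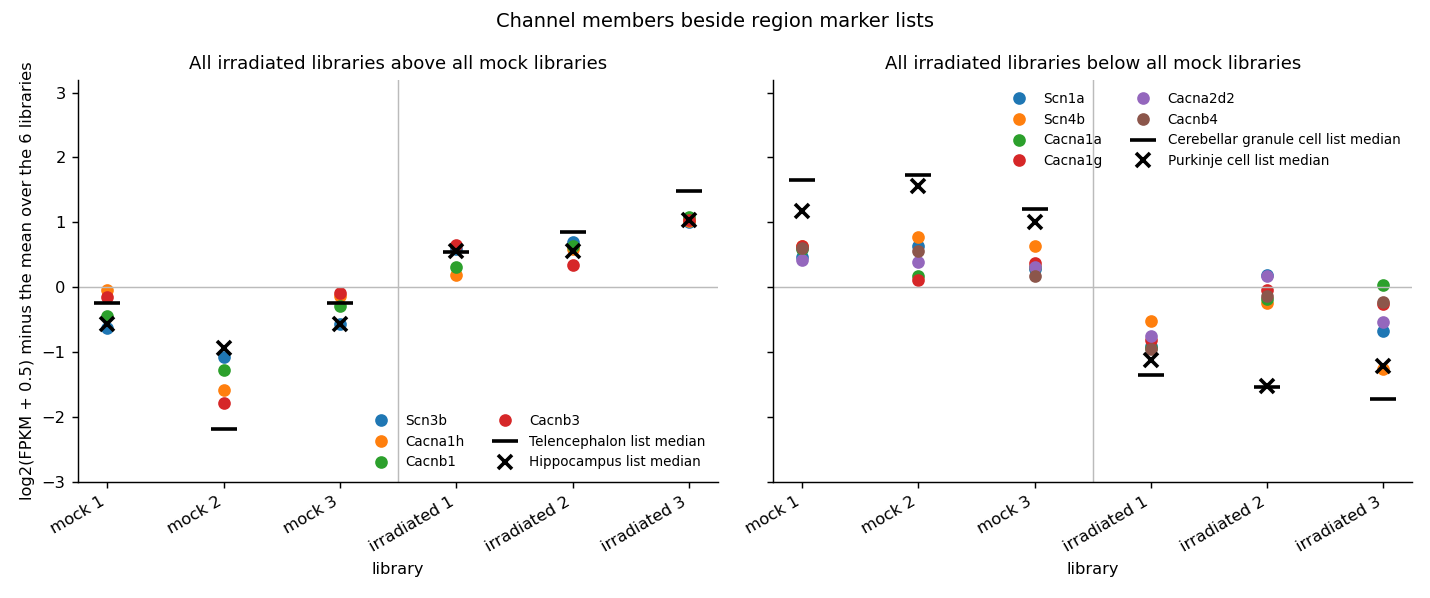
Log2(FPKM + 0.5) minus the gene's mean over the 6 libraries for the 10 members with separated groups (coloured circles), with the library medians of region marker lists (black). On the left, members and both forebrain lists are lowest in mock 2 and highest in irradiated 3; on the right, members and both cerebellar lists are above 0 in each mock library, and Scn1a and Cacna2d2 are also above 0 in irradiated 2 and Cacna1a in irradiated 3.

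Levels of long transcripts differed between libraries. Genes of at least 6000 bases had centred log2 medians of 0.24, 0.031 and 0.002 in mock 1, 2 and 3 and of -0.39, 0.15 and 0.016 in irradiated 1, 2 and 3, and shorter genes had medians of -0.049 to 0.057. Mock 1, the library with the highest median for long genes, was the highest for 9 of the 27 tested members, Cacna1a, Cacna1g, Cacna2d2 and Cacnb4 among them, and for 15.2% of all tested genes of any length. The longest transcript of Cacna2d2 has 5807 bases, which is under 6000. Irradiated 1 was the lowest library for 14 of the 27 tested members and the highest for 0, while among all tested genes it was the lowest for 25.0% and the highest for 18.5%. Most alpha subunits come from long transcripts. Of the 16 tested members whose longest GENCODE transcript has at least 6000 bases, 15 were lower in irradiated 1 than in the mean of irradiated 2 and 3, with a median difference of -0.67 on the log2 scale. Over all 2056 genes of that length the median was -0.48 and 1839 were lower, so long transcripts in general were low in this library. For the 11 shorter members the median was -0.29. Of these, the 4 with 2000 to 4000 bases had a median of -0.37, beside 0.046 over all genes of that length. The 7 with 4000 to 6000 bases had a median of -0.29, beside -0.19 over all genes of that length. Cacna1e, with 14921 bases the longest, had the widest difference, -2.02. Irradiated 1 also differed from irradiated 2 and 3 in the olfactory bulb genes Doc2g and Cdhr1, and any link to the members' levels was not tested.

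**Figure D5:**
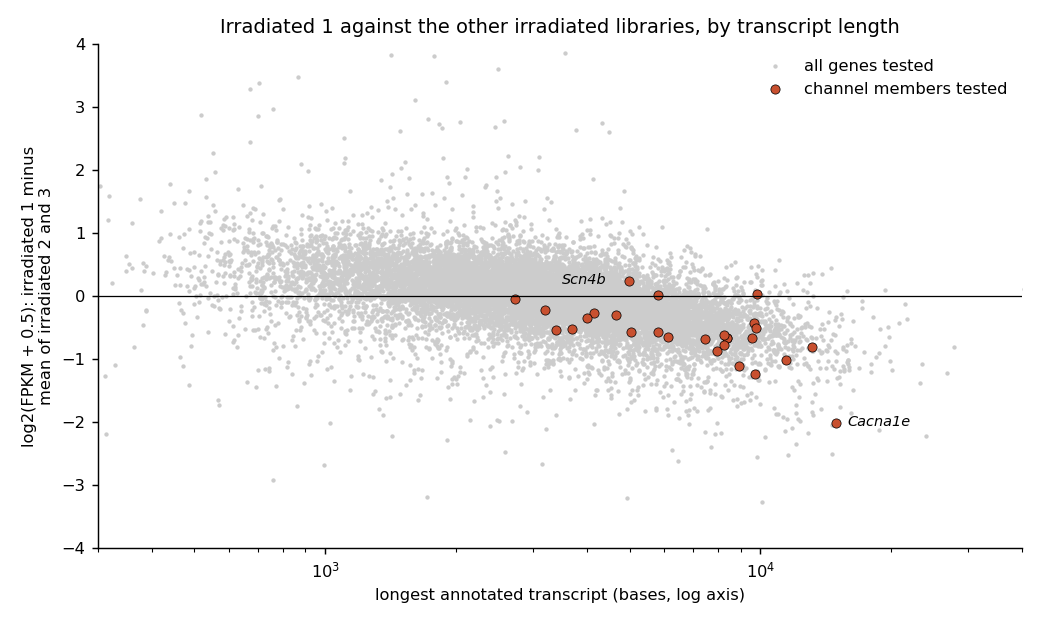
Difference in log2(FPKM + 0.5) between irradiated 1 and the mean of irradiated 2 and 3, against the length of the longest annotated transcript in bases (log axis); grey points are all tested genes with a length, red points are the channel members, and 19 genes fall outside the axes. The members lie mostly below 0, and long transcripts of all genes do as well.

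Removing the trend with transcript length and GC from each library left all 3 calls in place and added 7. Under it Cacna1h (1.16) and Cacna2d1 (1.02) were called higher, and Cacna1a (-0.72), Cacna1g (-0.73), Cacna2d2 (-0.74), Cacnb4 (-0.55) and Hcn2 (-0.62) lower, each value a log2 change. In total 4 members were higher and 6 lower, while the calls over all genes grew to 858 higher and 923 lower. Exonic bases of 9 tested members, Cacnb1, Cacnb4, Cacna1a, Cacna1h and Cacna2d2 among them, overlap a gene on the opposite strand; that of Cacna1h, Tpsg1, was at 0.073 FPKM at most. Whether reads were counted by strand is not given in the sources used here, and without strand the reads of both cannot be told apart.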

How the data were processed

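RNA-seq libraries were made from total RNA of 6 brains after removal of ribosomal RNA and sequenced as single reads of 75 nucleotides, about 30 to 40 M per library, per the labels' protocols. The authors deposited FPKM values, 1 column per library. The submitters' processing notes name TopHat, Cufflinks, Cuffdiff and the mm10 build; their versions and settings, the annotation and any use of strand were not given in the sources used here, and read depth per gene is unknown. FPKM summed to 472450 to 625782 per library after 1 leftover header line was dropped. The test was limma 3.58.1 (R 4.3.3) of log2(FPKM + 0.5) over genes averaging 0.5 FPKM or more, group as the only term, with a mean-variance trend, two-sided; this scale understates changes of low genes. An exact permutation test of 3 against 3 cannot go below 0.1. Shares are of the summed FPKM of the described members of a subfamily. They were not corrected for the differences between libraries by transcript length. Of the members, 3 are not reported here but stay in the fit, and all others are described; partner and marker genes were named from hand-written lists as called genes by smallest p or, for markers, as up to 3 genes with the highest mean level in a list whose sums did not overlap between groups. Ank3, Pex5l, Tbr1, Hoxb6, Trpv1, Mrgprd, Ckm, Acta1, Lhx6, Cspg4, Pdgfra and the named thalamus genes fall outside that rule and were named after their values were seen. Transcript length and GC are those of the longest GENCODE M21 transcript (99.3% of tested genes). The members and lists were chosen with earlier results of these data known.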

Additional observations from a re-analysis of the deposited data

How the results depend on the processing

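The result was recomputed under 17 alternatives, 6 of which left out 1 library. Over all genes, 508 were higher and 618 lower; with the telencephalon list as a covariate these were 16 and 56, after removal of the trend with length and GC 858 and 923, and without 1 library 148 to 671 and 254 to 684. Replicate numbers did not pair the libraries: same-numbered libraries correlated at -0.33, 0.193 and 0.202, and mock 1 and mock 3 correlated best with another number. A fit with the replicate block called 401 genes higher and 394 lower and kept the members' 3 calls; of the partner genes it ended the call of Cacng2 (limma adjusted p = 0.057). Members called higher were 2 and lower 1; these became 1 and 1 with no filter on low values, 4 and 1 without mock 2 and irradiated 1 together, 0 and 0 with the telencephalon covariate, 4 and 6 with the length and GC removal, and 1 to 4 and 0 to 3 without 1 library. Scn3b was called in 16 of the 17 alternatives, Scn4b in 14 of 17, and Cacnb1 in 11 of 17. Partner genes called higher (3) were 1 with no filter on low values, 5 without mock 2 and irradiated 1 together, 0 with the telencephalon covariate and 1 to 4 without 1 library; those called lower (2) were 0 with that covariate and 1 to 3 without 1 library.

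Signs changed only for members that were not called. With the telencephalon covariate the log2 changes were -0.21 (Scn2a1), -0.26 (Scn3a), 0.20 (Scn9a), -0.67 (Cacna1c), -0.52 (Cacna1e), -0.20 (Cacna1h), -0.60 (Cacna1i), -0.32 (Cacna2d3), -0.10 (Cacnb2), -0.075 (Cacnb3) and -0.057 (Hcn3). With quantile normalization Scn9a was 0.013, and with the length and GC removal it was 0.20. Without mock 2 and irradiated 1 together Scn8a was 0.072 and Cacna2d4 -0.0027. Without 1 library the ranges that crossed 0 were -0.037 to 0.55 (Scn2a1), -0.37 to 0.16 (Scn8a), -0.12 to 0.40 (Cacna1c), -0.37 to 0.049 (Cacna1d), -0.12 to 0.90 (Cacna1e), -0.065 to 0.53 (Cacna1i), -0.10 to 0.30 (Cacna2d3), -0.031 to 0.056 (Cacna2d4) and -0.017 to 0.27 (Cacnb2). The cause was not tested. Read depth per gene is unknown, so no counting error can be given for the low members.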

Other observations

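Gm13629, annotated on the strand opposite to Scn9a and with an exon in the 250 bases before a start of Scn1a, was picked after its values were seen. It was at 6.00, 9.06 and 6.00 FPKM in mock mice and 2.89, 4.68 and 2.21 FPKM in irradiated mice, with no overlap (log2 change -1.03, SE 0.27, limma adjusted p = 0.055). Like Scn1a and Scn9a it was highest in mock 2. Scn9a, whose exons it overlaps, had a log2 change of -0.12.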
